A study of Arabidopsis thaliana with 18 samples.

Results

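The AINTEGUMENTA and PLETHORA genes make up a clade of AP2-type transcription factors, and the 8 genes described here were taken by their identifiers in the order ANT (AT4G37750), AIL1 (AT1G72570), AIL5 (AT5G57390), AIL6 (AT5G10510), AIL7 (AT5G65510), PLT1 (AT3G20840), PLT2 (AT1G51190) and BBM (AT5G17430). Each was looked up in every deposited table of genes that differ between sorted cell populations. Of the 8 genes, 5 stood in at least 1 table, among 8444 genes that stood in any. ANT, AIL5, AIL6 and AIL7 were found in tables of the fit on all 6 populations, 4 of 8 against 37.9% of 22074 genes tested, BBM in a single table of a fit on 2 populations, and AIL1, PLT1 and PLT2 in none.

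These factors keep cells dividing and delay their differentiation. In the shoot, ANT drives the growth of lateral organs, and ANT and AIL6 act together when flower primordia start and grow, downstream of the auxin response factor ARF5 (MONOPTEROS). AIL5, AIL6 and AIL7, also called PLETHORA5, PLETHORA3 and PLETHORA7, act in the placing of new organs around the meristem, and AIL6 and AIL7 share with ANT a role in keeping the shoot meristem going. PLT1 and PLT2 are best known from the root stem cell niche, and BBM from the embryo.

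The 18 libraries came from Arabidopsis thaliana ap1cal plants aged 4 to 5 weeks, in which mutations in APETALA1 and CAULIFLOWER turn flower primordia into further meristems, and no treatment was given. All plants carried 3 fluorescent reporters in the T2 generation, namely pAtML1::mTag-BFP-ER in the epidermis, the fusion pREV::REV-2YPET in the central domain, and pmiR165a::GFP-ER in the peripheral domain. About 50 apices were digested to protoplasts, and viable single protoplasts were sorted into 6 populations with 3 libraries each. The epidermal REV population (BFPYFP) carried the blue and yellow markers, the epidermal gap population (BFP) the blue marker alone, and the epidermal miR165a population (BFPGFP) the blue and green markers. Below the epidermis, the subepidermal REV population (YFP) carried the yellow marker, the subepidermal miR165a population (GFP) the green marker, and the all negative population (AllNeg) no marker. The extra REV copy is shared by all 6 populations, and the all negative population is defined only by the lack of markers.

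The markers of layer and of the REV domain followed the labels. The 4 epidermal markers ATML1, PDF1, PDF2 and FDH were listed as higher in the epidermal population in all 9 pairs of populations that cross layers, with summed levels of 24143 to 27539 normalized counts in epidermal populations and 464 to 724 below. The abaxial genes KAN1 and KAN2 summed to 42.7 and 40.8 in the epidermal and subepidermal REV populations and to 539 to 773 in the other 4. REV, whose reads can come from the gene and from the fusion, stood at 2298 and 2844 in the epidermal and subepidermal REV populations and at 1022 to 1288 in the other 4. CLV3, the other marker of the REV domain, stood at 165 and 21.1 in the epidermal and subepidermal REV populations. It stood at 3.02 to 12.7 in the other 4. MIR165A itself stood in no table. KAN1 and KAN2 were listed neither between epidermal gap and epidermal miR165a cells nor between all negative and subepidermal miR165a cells. None of these markers was thus listed as setting the miR165a populations apart from the marker-free cells of their layer. By value, KAN1 was higher in miR165a than in marker-free cells, at 527 against 314 in the epidermis and 302 against 231 below it. KAN2 stood at 246 against 225 in the epidermis and, the other way, at 362 against 398 below it. Other cell types were not evenly spread. Summed levels of the vascular genes ATHB8, APL and SUC2 were 407 in subepidermal REV cells and 641 in all negative cells, against 39.0 to 91.1 in the other 4 populations. Most of the first sum was ATHB8 (305) and most of the second was SUC2 (521). The guard cell genes FAMA and MUTE summed to 371 in epidermal gap cells, against 3.83 to 56.1 elsewhere. The floral organ gene PI stood at 60.2 to 98.0 in epidermal populations, highest in REV cells. Below the epidermis it stood at 11.4 to 40.5, lowest in REV cells. AP3, the other floral organ gene, was listed only as higher in epidermal gap than in either miR165a population.

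AIL6 and AIL7 were listed together in 7 pairs of populations, as were ANT and AIL6, but the region before ANT was not compared. The sequences of 2 regions are shown first because, among the 7 genes compared, those before AIL6 and AIL7 had the longest stretch in common. They are the 250 bases before the annotated start of each gene, read from RefSeq's TAIR10.1 assembly, 5′ to 3′ on the strand of the gene. The capitals mark the longest stretch that the AIL6 and AIL7 regions have in common.
AIL6 (chr5:3315151-3315400, plus strand): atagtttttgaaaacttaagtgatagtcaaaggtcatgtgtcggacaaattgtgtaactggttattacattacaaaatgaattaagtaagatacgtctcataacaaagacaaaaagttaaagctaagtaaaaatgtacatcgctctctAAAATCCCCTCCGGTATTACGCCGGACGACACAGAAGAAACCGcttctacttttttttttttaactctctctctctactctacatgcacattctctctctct
AIL7 (chr5:26185343-26185592, plus strand): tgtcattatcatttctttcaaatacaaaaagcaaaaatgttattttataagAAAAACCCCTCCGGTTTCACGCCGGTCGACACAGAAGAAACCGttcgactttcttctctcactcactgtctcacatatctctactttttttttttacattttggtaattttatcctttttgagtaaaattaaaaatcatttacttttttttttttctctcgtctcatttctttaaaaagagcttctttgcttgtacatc
The capital stretch was 43 bases long, of which 39 were identical and 4 were not. It lay 102 to 60 bases before the start of AIL6 and 199 to 157 bases before the start of AIL7. Within it ran 17 identical bases in a row, and this run was found on either strand in 2 of 27443 promoters of protein-coding genes, those of AIL6 and AIL7. Among the other pairs of the 7 genes compared, of 21 pairs in all, the longest such stretch was 22 bases and the longest identical run was 13 bases.

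A set of 3 motifs was searched on both strands of the same regions of these 7 genes, which leave out ANT. TGTCTC, the classical core of an auxin response element, was present in 3 of the 7 regions (AIL1, AIL7 and BBM) and in 10.9% of all promoters. TGTCGG, a site that auxin response factors bind tightly in vitro, was present in 3 (AIL5, AIL6 and PLT1) and in 4.16% of all promoters. In AIL6 it began 212 bases before the start, and in AIL7 the TGTCTC began 133 bases before it, both outside the shared stretch. The HD-ZIPIII site, GTAAT and ATTAC 1 base apart, was present in none of the 7 and in 0.051% of all promoters. A match of this kind is a description of letters and not a binding site.

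The gene models bear on the counts in 1 case. ANT lies at chr4:17739514-17742407 on the plus strand, AIL5 at chr5:23252989-23256703 on the minus strand, AIL6 at chr5:3315401-3320323 and AIL7 at chr5:26185593-26189571, both on the plus strand (TAIR10.1). No annotated gene overlapped ANT, AIL5 or AIL7. The last 454 bases of AIL6, 14.7% of its exon sequence, also belong to RBK1 (AT5G10520), a receptor-like kinase gene on the other strand, and the library kit does not mark strand. RBK1 had a mean normalized count of 12.2 and was listed in 4 pairs, higher in subepidermal REV cells than in epidermal REV, gap and miR165a cells by 1.71, 2.22 and 1.97 on the log2 scale and higher in all negative than in epidermal gap cells by 1.66. The part of RBK1 reads in the AIL6 values was not tested.

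Each of the 4 measured genes was highest in a REV population and lowest in a miR165a population. The tables list differences between populations, and since the fold changes of the fit on 6 populations add up exactly, the level of each gene in each population could be worked out from them, with its standard error (SE), as a mean of 3 libraries. These levels are counts divided by size factors, which correct for sequencing depth. No values per library were analysed, so the spread is given as the SE of the fit. Because sorted populations were pooled, fewer expressing cells and less RNA per expressing cell cannot be told apart.

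**Figure D1:**
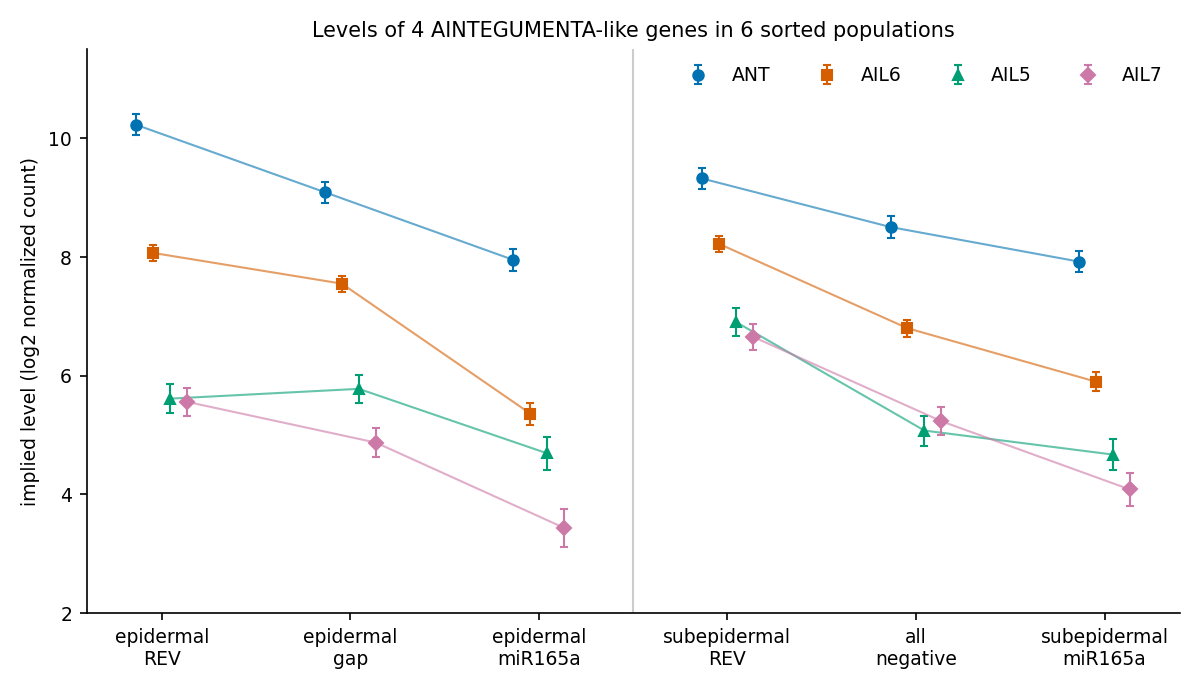
Implied level (log2 normalized count, vertical axis) of ANT, AIL6, AIL5 and AIL7 in the 6 sorted populations (horizontal axis); points are levels from the fit on 6 populations, bars are 1 SE, and lines join the populations of 1 layer. ANT peaked in epidermal REV cells (10.23), whereas AIL5 and AIL7 peaked in subepidermal REV cells (6.91 and 6.66), and the miR165a populations held the lowest levels of each gene.

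ANT, the most abundant of the 4, had its highest level in epidermal REV cells, at 1198 normalized counts (1 SE range 1059 to 1354). It stood at 641 (566 to 725) in subepidermal REV cells, 545 (482 to 617) in epidermal gap cells, 363 (321 to 412) in all negative cells, 247 (218 to 281) in epidermal miR165a cells and 243 (214 to 275) in subepidermal miR165a cells. The highest level was 4.94 times the lowest. Subepidermal REV and epidermal gap cells were not separated (log2 difference 0.23 ± 0.25 SE, 95% interval -0.26 to 0.73), nor were both miR165a populations (0.03 ± 0.26, -0.48 to 0.54).

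AIL6 was about equally high in both REV populations, at 299 normalized counts (273 to 327) below the epidermis and 268 (245 to 294) within it, a log2 difference of 0.15 ± 0.18 (95% interval -0.21 to 0.52). It then fell off through epidermal gap cells at 188 (171 to 206), all negative cells at 111 (101 to 123) and subepidermal miR165a cells at 59.7 (53.4 to 66.7) to epidermal miR165a cells at 41.1 (36.1 to 46.8). Apart from both REV populations, every step between neighbours had an unadjusted 95% interval that left out 0, in an order taken from the same values. The last step, 0.54 ± 0.25 between the miR165a populations, had an adjusted p over the limit of the tables. The highest level was 7.27 times the lowest.

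AIL5 had a single high population. It stood at 120.0 normalized counts (102 to 141) in subepidermal REV cells, then at 54.9 (46.5 to 64.8) in epidermal gap, 49.0 (41.4 to 58.0) in epidermal REV, 33.7 (28.3 to 40.2) in all negative, 25.8 (21.3 to 31.3) in epidermal miR165a and 25.5 (21.2 to 30.6) in subepidermal miR165a cells. Of the neighbours in this order, subepidermal REV and epidermal gap cells differed (log2 difference 1.13 ± 0.33), and none of the lower steps had an interval that left out 0. The top level was 4.71 times the bottom one.

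AIL7, the least abundant by mean count, also peaked in subepidermal REV cells, at 100.9 normalized counts (86.5 to 118). It reached 47.2 (40.2 to 55.4) in epidermal REV, 37.6 (31.9 to 44.4) in all negative, 29.3 (24.8 to 34.7) in epidermal gap, 17.0 (14.0 to 20.5) in subepidermal miR165a and 10.8 (8.63 to 13.6) in epidermal miR165a cells. It had the widest range of the 4, a factor of 9.32. The SE on the log2 scale was 0.22 to 0.33 for AIL7 and 0.13 to 0.19 for AIL6, so the order of the middle populations is less certain for AIL7.

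The comparison of REV with miR165a cells asks which genes are kept out of the peripheral domain. In the epidermis 3 of the 8 genes were listed as higher in REV cells, against 5.27% of the 20703 genes tested. AIL6 was 6.53-fold higher (log2 2.71 ± 0.23, adjusted p = 4.07e-30 by the DESeq2 Wald test), ANT 4.84-fold (2.27 ± 0.26, adjusted p = 2.90e-17) and AIL7 4.36-fold (2.12 ± 0.40, adjusted p = 1.15e-06). AIL5 was not listed, with an implied log2 difference of 0.92 ± 0.37 (95% interval 0.20 to 1.64), under the limit of 1 on which the tables rest.

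Below the epidermis 4 of the 8 genes were listed as higher in REV than in miR165a cells, against 4.79% of the 22074 genes tested. AIL7 was 5.95-fold higher (log2 2.57 ± 0.35, adjusted p = 2.02e-11), AIL6 5.0-fold (2.32 ± 0.21, adjusted p = 1.27e-26), AIL5 4.71-fold (2.24 ± 0.35, adjusted p = 8.49e-09) and ANT 2.64-fold (1.40 ± 0.26, adjusted p = 1.03e-06), all by the DESeq2 Wald test. The cell division genes CYCB1;1 and CDKB1;1 had a summed level of 703 and 348 normalized counts in epidermal and subepidermal REV cells and of 160 to 291 in the other 4. Both were listed as higher in REV than in miR165a cells in the epidermis and neither below it. By value they were higher in REV cells below it too, at 186 against 102 for CYCB1;1 and 162 against 82.1 for CDKB1;1. The part of cell division in the differences of either layer was not tested.

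Marker-free cells, which are defined by the lack of domain markers and not by position, were also set against both domains. In the epidermis, 4 of the 8 genes were listed as higher in gap than in miR165a cells, against 2.04% of genes tested. AIL6 differed most (log2 2.19 ± 0.23), followed by AIL7 (1.44 ± 0.41), ANT (1.14 ± 0.26) and AIL5 (1.09 ± 0.37, adjusted p = 0.0280 by the DESeq2 Wald test, so that AIL5 is lost at a limit of 0.01). Between epidermal REV and gap cells only ANT was listed, 1 of 8 against 1.49% (log2 1.13 ± 0.25, adjusted p = 0.000155), whereas AIL6 (0.52 ± 0.19), AIL7 (0.69 ± 0.34) and AIL5 (-0.16 ± 0.34) were under the limit of the fold change. Below the epidermis, 3 of the 8 were listed as higher in REV than in all negative cells, against 3.37%, namely AIL5 (1.83 ± 0.34), AIL7 (1.42 ± 0.33) and AIL6 (1.42 ± 0.19). ANT showed 0.82 ± 0.25 there.

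Between all negative and subepidermal miR165a cells 0 of the 8 genes were listed, against 2.07% of genes listed in either direction. The implied unadjusted p of the DESeq2 Wald test was under 0.05 in 3 of the 4 genes with a value, with log2 differences of 1.15 ± 0.37 for AIL7, 0.90 ± 0.22 for AIL6 and 0.58 ± 0.26 for ANT. AIL7 was the single unlisted case past the limit of the fold change, and its adjusted p was over the limit. AIL6 had an adjusted p of 0.00209 to 0.00224 there and was left out by its fold change alone. Over all pairs, which share populations, 33 of 120 combinations of gene and pair were listed. The share of all genes tested ran from 1.49% to 14.8% between pairs. It was counted in the direction of the members or, where none was listed, in either direction. Of the 27 unlisted combinations of ANT, AIL5, AIL6 and AIL7, 26 were under the limit of the fold change, and 8 of those had an adjusted p within the limit. A gene missing from a table is thus not a gene without a difference.

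BBM was listed once, in the fit on epidermal REV and epidermal miR165a cells alone, as 1 of the 8 genes against 11.2% of genes tested that were lower in REV cells there. Its mean normalized count was 1.76, with a log2 difference of -3.76 ± 1.54 and an adjusted p of 0.0495 by the DESeq2 Wald test, and it stood in no table of the fit on 6 populations, so it has no level here.

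**Figure D2:**
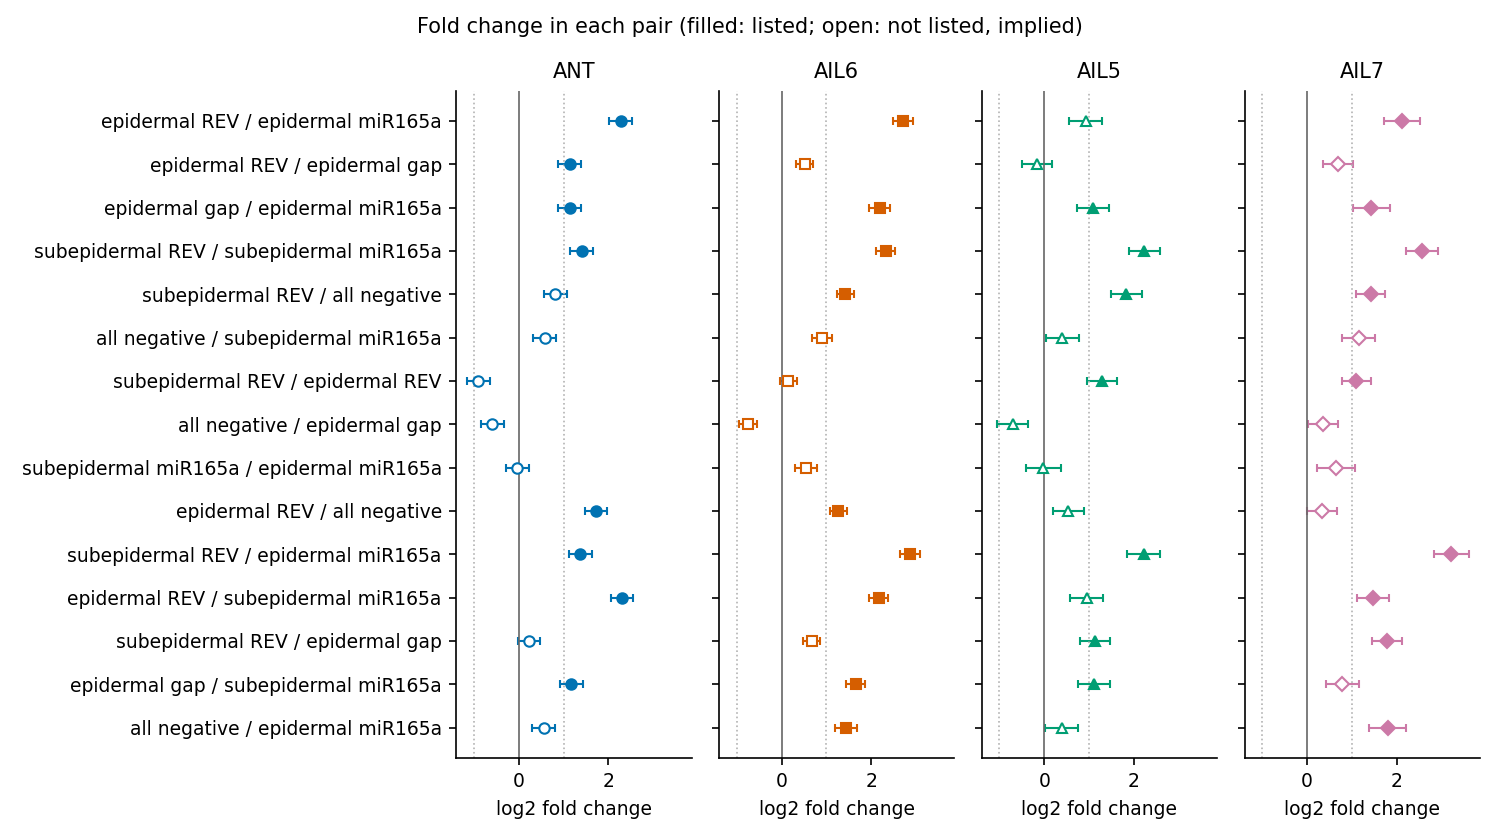
Log2 fold change (horizontal axis) of the first over the second population in each of the 15 pairs (vertical axis) for ANT, AIL6, AIL5 and AIL7; filled points are listed values, open points are implied values of unlisted pairs, bars are 1 SE, and dotted lines mark the limit of 1. In the pair of subepidermal over epidermal REV cells ANT lies at -0.90 while AIL5 and AIL7 lie at 1.29 and 1.10.

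The REV domain compared between layers set the 4 genes apart. AIL5 and AIL7 were listed as higher in subepidermal than in epidermal REV cells, 2 of the 8 against 13% of genes tested. AIL5 was 2.45-fold higher (log2 1.29 ± 0.34, adjusted p = 0.000665) and AIL7 2.14-fold (1.10 ± 0.32, adjusted p = 0.00291) by the DESeq2 Wald test. ANT went the other way, at -0.90 ± 0.25 with an adjusted p of 0.00164 to 0.00165, and was unlisted only for its fold change, while AIL6 hardly differed (0.15 ± 0.18). Relative to ANT, the shift towards the inner cells was 2.20 ± 0.42 for AIL5, 2.0 ± 0.41 for AIL7 and 1.06 ± 0.31 for AIL6 on the log2 scale, with errors of different genes taken as independent. The vascular gene ATHB8, whose product belongs to the HD-ZIPIII family, reached 305 normalized counts in subepidermal REV cells and 6.43 to 11.8 in the other 5 populations. The vascular genes APL and SUC2 were instead highest in all negative cells, at 113 and 521 normalized counts, against 59.3 and 42.5 in subepidermal REV cells. The part of vascular cells in the AIL5 and AIL7 peaks was not tested. PI and CLV3 were listed as lower in subepidermal than in epidermal REV cells, by -3.10 ± 0.31 and -2.97 ± 0.47 on the log2 scale. The part of such cells in the ANT values was not tested either.

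The other domains were compared between layers in the same way. Between all negative and epidermal gap cells 0 of the 8 were listed, against 14.8% of genes in either direction, although the implied unadjusted p of the DESeq2 Wald test was under 0.05 in 3 of 4. AIL6 (-0.75 ± 0.20), AIL5 (-0.70 ± 0.35) and ANT (-0.59 ± 0.25) had lower values in all negative cells, and AIL7 stood at 0.36 ± 0.34. AIL6 had an adjusted p of 0.000856 to 0.000862 there and was unlisted only for its fold change. Between both miR165a populations 0 of the 8 were listed, against 10%, and 1 of 4 had an implied unadjusted p of the DESeq2 Wald test under 0.05, AIL6 with 0.54 ± 0.25 towards the inner cells. ANT (-0.03 ± 0.26) and AIL5 (-0.02 ± 0.38) were close to 0 there, with 95% intervals of -0.54 to 0.48 and -0.77 to 0.73.

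The pairs that cross both layer and domain share populations with those above and add no independent evidence. Subepidermal REV cells were above epidermal miR165a cells in 4 of the 8 genes, against 7.1% of genes tested, with the widest gap in AIL7 (log2 3.22 ± 0.39) and then AIL6 (2.86 ± 0.23), AIL5 (2.22 ± 0.36) and ANT (1.37 ± 0.26). Epidermal REV cells were above subepidermal miR165a cells in 3 of the 8 (8.54% of genes tested), namely ANT (2.30 ± 0.25), AIL6 (2.17 ± 0.21) and AIL7 (1.48 ± 0.36). They were above all negative cells in 2 of the 8 (8.68%), ANT (1.72 ± 0.25) and AIL6 (1.27 ± 0.19). Subepidermal REV cells were above epidermal gap cells in 2 of the 8 (7.44%), AIL7 (1.78 ± 0.33) and AIL5 (1.13 ± 0.33). Epidermal gap cells were above subepidermal miR165a cells in 3 of the 8 (5.95%), AIL6 (1.65 ± 0.21), ANT (1.17 ± 0.26) and AIL5 (1.11 ± 0.36), and all negative cells were above epidermal miR165a cells in 2 of the 8 (6.13%), AIL7 (1.80 ± 0.40) and AIL6 (1.44 ± 0.24).

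Whether a fold change was the same in both layers was tested for each gene with a two-sided z test on the DESeq2 fold changes and their SEs, adjusted by the Benjamini-Hochberg method over all genes whose listed pairs give a value. These genes are a selected set, since a gene must be listed in several pairs to have one. For REV over miR165a, 40.4% of 2935 genes differed between layers, and 2 of the 4 genes did so, a share near that of all genes, in opposite directions. The change of ANT was larger in the epidermis by 0.87 ± 0.36 (adjusted p = 0.0405), and that of AIL5 was smaller there by 1.31 ± 0.51 (difference -1.31, adjusted p = 0.0281). With wider SEs (the factor is given with the processing) neither passed the z test (adjusted p = 0.138 for ANT and 0.110 for AIL5). AIL6 (0.39 ± 0.31) and AIL7 (-0.45 ± 0.53) did not pass the test.

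For REV over marker-free cells, 19.4% of 3244 genes differed between layers, and 2 of the 4 genes did. AIL5 went from -0.16 ± 0.34 in the epidermis to 1.83 ± 0.34 below it, a difference of -2.0 ± 0.48 (adjusted p = 0.000509 by the z test), and AIL6 from 0.52 ± 0.19 to 1.42 ± 0.19, a difference of -0.90 ± 0.27 (adjusted p = 0.00627, or 0.0579 with the wider SEs). For marker-free over miR165a cells, 22.1% of 2723 genes differed, and 1 of the 4 did, a share near that of all genes. Here AIL6 dropped by 2.19 ± 0.23 in the epidermis and by 0.90 ± 0.22 below it, a difference of 1.29 ± 0.32 (adjusted p = 0.0006 by the z test). By value, the larger log2 step of AIL6 was between gap and miR165a cells in the epidermis and between REV and all negative cells below it. Its overall REV over miR165a change did not pass the test of a difference, and its difference for REV over marker-free cells did not pass with the wider SEs. AIL7 passed none of these tests, with differences of -0.45 ± 0.53, -0.74 ± 0.47 and 0.29 ± 0.55.

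**Figure D3:**
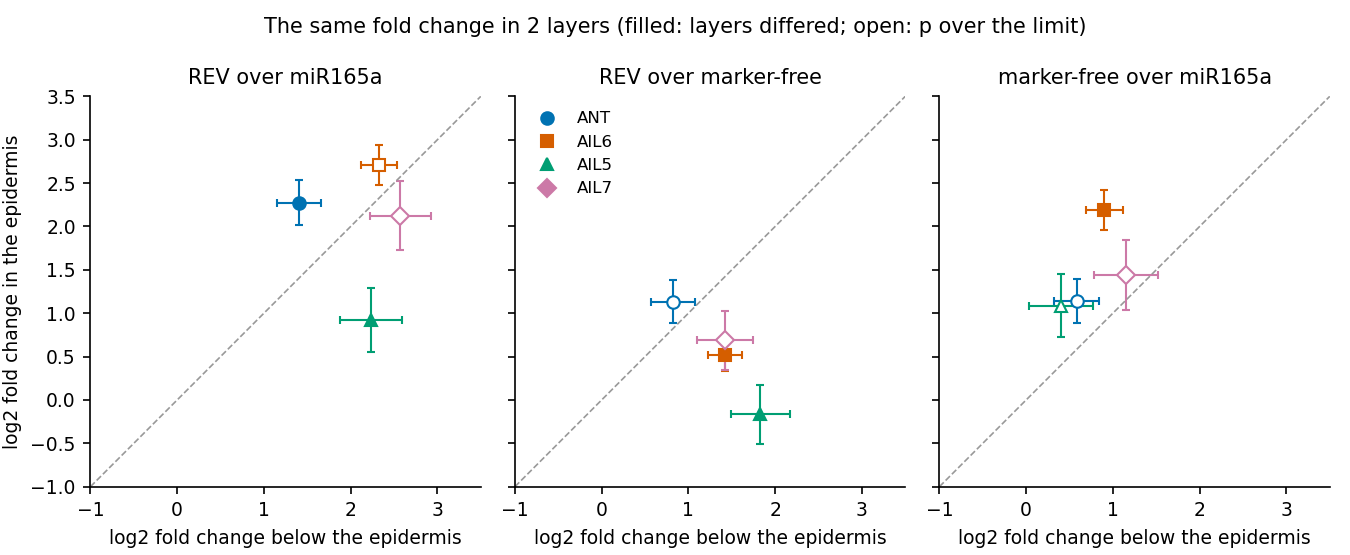
Log2 fold change in the epidermis (vertical axis) against the same fold change below it (horizontal axis) for REV over miR165a, REV over marker-free and marker-free over miR165a cells; bars are 1 SE, the dashed line marks equal change, and filled points passed the test of a difference between layers. AIL5 lies at -0.16 in the epidermis and 1.83 below it for REV over marker-free cells, and AIL6 at 2.19 and 0.90 for marker-free over miR165a cells.

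Levels of different genes can be set side by side only per length of transcript. Per kilobase of exon in TAIR10.1, the mean over populations was 250.4 normalized counts for ANT, 52.2 for AIL6, 20.8 for AIL7 and 20.7 for AIL5. ANT made up 60.2% of the sum of the 4 genes in subepidermal REV cells and 71.0% to 80.9% in the other 5 populations. AIL5, AIL6 and AIL7 each had their largest share in subepidermal REV cells, with 9.75% for AIL5, 10.5% for AIL7 and 19.6% for AIL6. In epidermal REV cells, where the sum was highest at 687 per kilobase, these shares were 2.86%, 3.53% and 12.7%. The sum was 494 in subepidermal REV cells and 144 and 151 in the epidermal and subepidermal miR165a populations.

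**Figure D4:**
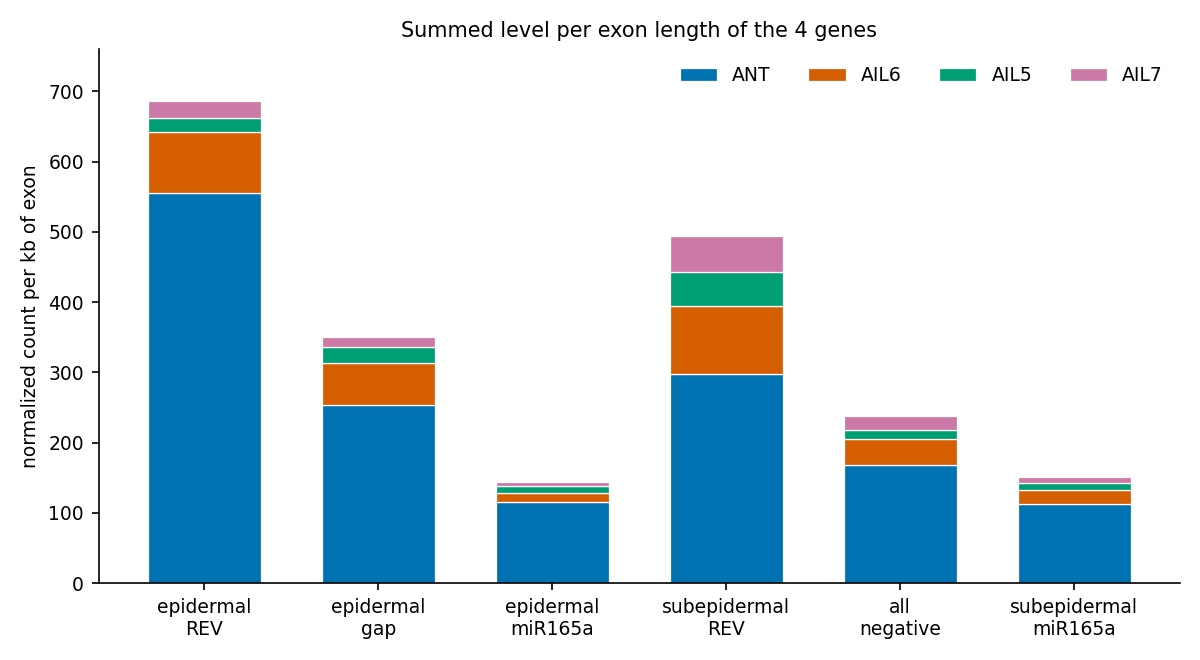
Normalized count per kilobase of exon (vertical axis) of ANT, AIL6, AIL5 and AIL7, stacked, in the 6 sorted populations (horizontal axis). The stack reaches 687 in epidermal REV cells, of which ANT is 80.9%, and 494 in subepidermal REV cells, of which ANT is 60.2%.

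By value, AIL6 and AIL7 had the most similar patterns among the 4 genes, but other pairs of genes came close and the order was not tested. The root mean square difference of mean-centred log2 levels over 6 populations was 0.43 for AIL6 and AIL7. It was 0.47 for ANT and AIL6, 0.49 for AIL5 and AIL7 and 0.55 for AIL5 and AIL6. The widest were 0.64 for ANT and AIL5 and 0.70 for ANT and AIL7. AIL6 was listed together with AIL7 in 7 pairs and with ANT in 7, in the same direction each time, but these pairs share populations.

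The same measure over 2240 genes with all 6 levels and a mean normalized count of at least 50 gave the genes most like each of the 4. For ANT these were AT4G31360 (0.15), AT5G11780 (0.15) and FANCM, a DNA helicase that limits meiotic crossovers (0.16). For AIL6 they were again AT4G31360 (0.34), AGO7, the ARGONAUTE of the TAS3 small RNA pathway (0.34), and AT1G26540 (0.36). AIL7 was most like AGO10 (0.19), the ARGONAUTE that sequesters miR165 and miR166, followed by OBP1, a Dof transcription factor (0.25), and AT5G23100 (0.27). AGO10 had log2 levels of 11.80 in subepidermal REV, 10.50 in all negative, 10.35 in epidermal REV, 9.67 in epidermal gap, 9.24 in subepidermal miR165a and 8.63 in epidermal miR165a cells, the order of AIL7 except that all negative and epidermal REV cells change places. For AIL5 the nearest genes were AT2G37880 (0.25), XTR6, a xyloglucan endotransglucosylase gene (0.26), and AT1G17230 (0.34).

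Genes of the same pathway were counted from lists. Of 8 auxin and growth inputs, 4 were listed in some pair of the fit on 6 populations, against 37.9% of genes tested. Between REV and miR165a cells 1 of the 8 was listed in each layer, ARF5, against 5.27% of genes listed as higher in REV cells in the epidermis and 4.79% below it. ARF5 rose by 1.23 ± 0.18 in the epidermis (adjusted p = 3.78e-10) and by 2.26 ± 0.18 below it (adjusted p = 5.29e-32, DESeq2 Wald test), and its level ran from 475 normalized counts in subepidermal miR165a to 2269 in subepidermal REV cells. ARGOS, which acts upstream of ANT in organ growth, was listed once among the pairs, higher in subepidermal than epidermal REV cells (1.47 ± 0.55). Its relative ARL was lower in epidermal REV than in all negative (-1.12 ± 0.29) and subepidermal miR165a cells (-1.04 ± 0.29). The auxin response factor ARF3 was higher in subepidermal REV than in epidermal miR165a cells (1.12 ± 0.21). ARF2, a repressor of organ growth, IAA12, an inhibitor of ARF5, and the chromatin remodellers BRM and SYD were in no table.

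A list of 6 other genes activated by ARF5, which names no tissue, was counted next. Of these, 4 were listed as higher and 1 as lower in REV than in miR165a cells in each layer. The share of genes tested that were higher was 5.27% in the epidermis and 4.79% below it. TMO3, the remaining gene of this list, was in no table. The median of the listed log2 values was 2.28 in the epidermis and 1.70 below it, taken only over values of at least 1 in size. LFY, the floral identity factor, had epidermal levels of 839, 384 and 173 normalized counts in REV, gap and miR165a cells, with log2 steps of 1.13 ± 0.16 and 1.15 ± 0.18 beside the 1.13 ± 0.25 and 1.14 ± 0.26 of ANT. DRN and PUCHI, AP2/ERF factors of organ founder cells, had 151 and 98.6 counts in epidermal REV cells against 21.4 and 10.2 in gap cells. The abaxial gene FIL was the exception among these targets, lower in REV than in miR165a cells, with a log2 difference of -2.10 ± 0.28 in the epidermis, where 12% of genes tested were lower, and of -3.46 ± 0.27 below it, where 4.95% were.

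Of 7 genes that act downstream of ANT or PLT factors, 4 were listed as higher in epidermal REV than in epidermal miR165a cells, against 5.27% of genes tested, and none as lower, against 12%. They were the D-type cyclins CYCD3;1 (1.11 ± 0.12), CYCD3;2 (1.0 ± 0.15) and CYCD3;3 (1.38 ± 0.22), and the auxin synthesis gene YUC4 (3.06 ± 0.41). Below the epidermis 1 of the 7 was higher in REV cells, against 4.79%, YUC4 (2.82 ± 0.50). Between the REV populations 3 of the 7 were listed as lower below the epidermis, against 5.1% of genes tested, YUC4 (-1.89 ± 0.36), YUC1 (-1.61 ± 0.36) and CYCD3;3 (-1.04 ± 0.21), as ANT was by value, and none as higher, unlike AIL5 and AIL7. YUC1 stood at 71.3 counts in epidermal REV and 23.3 in subepidermal REV cells, and YUC4 at 88.7 and 23.9.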

How the data were processed

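RNA from 18 libraries, 3 for each of 6 sorted populations, was analysed from 19 deposited tables. Reads were checked with FastQC, trimmed with cutadapt and aligned to TAIR10 with TopHat. HTSeq gave exonic counts per gene and the authors fitted them with DESeq2 (versions not given in the sources used here). The signal column is a mean normalized count, for which the authors scaled each library by its size factor. The log2 columns hold the fold change that the authors fitted and its standard error, and whether it was shrunken is not stated. The deposited score is the Wald statistic. Each deposited p-value comes with its Benjamini-Hochberg adjustment over all genes tested. A gene is listed where the adjusted p is at most 0.05 and the fold change at least 1 on the log2 scale, in either direction. The deposited tables hold only such comparisons, so calls are those of the DESeq2 Wald test and not of a new test on counts, and depth per library is unknown. The replicates are called biological, but nothing says that they came from separate harvests, so p-values may measure only technical spread.

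The main source was the set of 15 tables, 1 per pair, of a single fit that used the 6 populations jointly. Another 4 tables hold fits on 2 populations. Levels were solved by least squares from the listed fold changes, which fitted to within 1.78e-14, and set so that the mean of the 6 levels equals the mean normalized count. Population variances came from squared standard errors, each the sum of 2 variances (median misfit 0.00642%, over 1571 genes). All 6 levels were had for 3832 genes. Numbers of genes tested came from the ratio of adjusted p to p. Gene models and promoters are from RefSeq TAIR10.1, whose annotation can differ from that used for counting. Stretches in common were scored without gaps, with 1 for a match and -2 for a mismatch. The reconstruction was also run on simulated levels. Their pair values were exact differences by construction, so this run checks the algebra and not the levels of these data. Python 3.11.15, numpy 2.4.6, pandas 2.3.3 and scipy 1.17.1 were used.

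The genes, lists and tests were chosen with earlier results of these data known. Named genes are the 8 members, the lists of other AP2-type factors, auxin inputs, ARF5 targets and downstream genes, cell type markers, the 3 genes most like each member, and the promoters of the members with the longest stretch in common. Protein sequences were not used here, and 1 downstream gene and the region before ANT are not reported here. Alternatives were a log2 limit of 1.5, an adjusted p of 0.01, a mean count of at least 50, the fits on 2 populations, weighted levels, another anchor, and wider standard errors, by a factor of 1.25.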

Additional observations from a re-analysis of the deposited data

Results flagged for a closer look

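The fold change of a gene differed between the epidermis and the cells below it in 5 cases, by the z test on the DESeq2 fold changes (adjusted p of 0.05 or less). For ANT, REV over miR165a was larger in the epidermis by 0.87 on the log2 scale. For AIL5 the same change was smaller in the epidermis, with a difference of -1.31, and REV over marker-free cells differed by -2.0. For AIL6, REV over marker-free cells differed by -0.90 and marker-free over miR165a cells by 1.29. With the wider standard errors, 3 of the 5 no longer passed the z test on the DESeq2 fold changes, namely those of ANT and AIL5 in REV over miR165a cells (adjusted p = 0.138 and 0.110) and that of AIL6 in REV over marker-free cells (0.0579). The share of all testable genes that differed was 40.4%, 19.4% and 22.1% for the 3 contrasts in the order given in the report.

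BBM, the embryo factor, stood in a single table, the fit on epidermal REV and epidermal miR165a cells alone, outside the tables used for the comparisons. Its mean normalized count was 1.76, with a log2 difference of REV over miR165a cells of -3.76 ± 1.54 and an adjusted p of 0.0495 (DESeq2 Wald test). As 1 of the 8 genes against 11.2% of the genes tested that were lower in REV cells there, this is a share near that of all genes, and BBM was not listed for the same pair in the fit on 6 populations.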

How the results depend on the processing

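With a log2 limit of 1.5, the members listed fell to 0 in epidermal REV against gap and in subepidermal against epidermal REV cells, and to 1 in epidermal gap against either miR165a population, subepidermal REV against all negative or epidermal gap cells, epidermal REV against all negative cells and all negative against epidermal miR165a cells. ANT dropped out of subepidermal REV against either miR165a population, which left 3, and AIL7 out of epidermal REV against subepidermal miR165a cells, which left 2. Where only genes with 50 or more normalized counts on average were kept, AIL7 dropped out, which left 1 in subepidermal REV against epidermal REV or gap cells and in all negative against epidermal miR165a cells. An adjusted p of 0.01 lost AIL5 in epidermal gap against epidermal miR165a cells, which left 3 members, and no other call. The fit on 2 populations added BBM in epidermal REV against miR165a cells, for 4 members, and weighted fold changes moved none of 24 levels by more than 1 SE. Averaging levels on the log2 scale raised the mean log2 level of ANT to 9.08, of AIL6 to 7.33 and of AIL7 to 5.34, moved 18 of 24 levels by more than 1 SE and left all differences as they were. With the wider standard errors, 3 differences between layers no longer passed the z test on the DESeq2 fold changes, namely REV over miR165a for ANT (0.87, adjusted p = 0.138) and AIL5 (-1.31, adjusted p = 0.110) and REV over marker-free for AIL6 (-0.90, adjusted p = 0.0579), since the test is then stricter. No paired analysis was possible because the tables hold no values per library, and for the same reason no replicate could be left out. Genes under the limits of a table are not seen there, so AIL1, PLT1 and PLT2 may be low, unchanged or not expressed.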

Other observations

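Of 9 other AP2-type factors, 4 were listed in some pair of the fit on 6 populations, against 37.9% of genes tested, and none was listed as higher in REV than in miR165a cells in both layers. AP2, the floral organ identity factor, was higher in epidermal REV than in epidermal miR165a cells (log2 1.16 ± 0.23) and was listed in that pair alone. TOE3, an AP2-like repressor, was listed as higher in epidermal gap cells than in the 3 populations below the epidermis, with log2 differences of -2.03 ± 0.41 for subepidermal REV over gap cells, -1.66 ± 0.40 for all negative over gap cells and 1.51 ± 0.40 for gap over subepidermal miR165a cells. The flowering repressors SMZ and SNZ had mean normalized counts of 10.6 and 3.39 and were lower in epidermal REV than in all negative cells, with log2 differences of -1.71 ± 0.63 and -2.03 ± 0.72. TOE1, TOE2, WRI1, WRI3 and WRI4 were in no table.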
